A study of Homo sapiens with 6 samples.

Results

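The enzymes of glycolysis, the pentose phosphate pathway, the pyruvate dehydrogenase step and the tricarboxylic acid (TCA) cycle were examined in KMS11 cells, a human line of multiple myeloma, which is a cancer of antibody-secreting plasma cells. A gene belonged to the set when its symbol matched a list of 37 enzymes, and all 37 were found among the 17918 genes of the table. The list held 17 glycolytic genes, 6 of the pentose phosphate pathway, 5 of the pyruvate dehydrogenase complex and its kinases, and 9 of the TCA cycle and its NADP-linked or cytosolic isozymes. RNA sequencing compared 3 libraries of KMS11 cells carrying a short hairpin RNA (shRNA) against CRIP1, a small LIM domain protein, with 3 libraries carrying a scrambled hairpin, whose genotype is labelled WT. Both groups were of 1 cell line grown in the same RPMI medium with serum, with no further treatment. Neither the number of hairpins nor whether replicates were separate cultures is given in the sources used here, and each p-value therefore speaks only for the scatter among these 6 libraries, part or all of which may be technical.

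Glycolysis splits glucose into pyruvate in the cytosol, yielding ATP, and lactate dehydrogenase regenerates NAD+ by reducing pyruvate to lactate. The pentose phosphate pathway branches off at glucose-6-phosphate, its oxidative arm making NADPH and its non-oxidative arm interconverting sugars to supply ribose for nucleotides. Pyruvate dehydrogenase feeds acetyl-CoA into the TCA cycle in mitochondria. Myeloma cells, like many tumours, are known for high glucose use, and plasma cells also spend glucose on the sugar chains of antibodies.

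Library totals ranged from 16971454 to 18005318 estimated counts. CRIP1 had 2791, 3327 and 3174 TPM (a transcript level scaled for gene length and library size) in scramble and 127, 129 and 134 TPM in the knockdown libraries, so each label matched its library. Markers of other cells differed as well, where 77.6% of all genes tested were called, 39.4% higher and 38.1% lower. All 12 tested erythroid markers of 16 listed were higher, their summed level going from 0.15 to 0.27 TPM up to 747.5 to 758.5 TPM, with 14 of the 16 at 0 counts in every scramble library (HBG2, fetal globin, stood at 185.2 TPM against 0). Epithelial markers were higher in 6 of 6 tested (summed 11.3 to 14.4 against 135.5 to 140.3 TPM, KRT18 27.4 TPM) and myeloid markers in 2 of 2 (0.48 to 0.71 against 6.65 to 7.32 TPM, LYZ 4.57 TPM), whereas fibroblast and endothelial markers had 1 higher and 3 lower of 4. All 16 erythroid and all 6 myeloid markers lay under 1 TPM in scramble. Those tested, and KRT18, passed the filter on low counts only through the knockdown libraries. They could therefore not have been called lower, and their counts of higher calls are no test. Of the 7 listed epithelial markers 4 lay under 1 TPM in scramble, 2 of them at 0 counts, so the 6 higher calls are limited in the same way. Mature B cell markers had 1 higher and 1 lower of 2, and no T or NK cell marker could be tested (CD3D had 19 counts over the knockdown libraries and 0 over scramble). Of 8 tested plasma cell markers 3 were higher and 5 lower, the sum falling from 8371 to 8811 TPM down to 3793 to 4048 TPM. Most of that fall was JCHAIN alone, which went from 6442.6 ± 223.4 to 1788.9 ± 157.9 TPM (SD, n = 3). Of 12 proliferation genes 6 were higher and 5 lower (2760 to 2825 against 3788 to 3807 TPM summed). The part of these differences in the results below was not tested, and fewer cells of a type cannot be told apart from less RNA per cell.

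Promoters are shown for the hexokinases, whose genes moved in opposite directions, for aldolase A, triosephosphate isomerase and GAPDH, which fell 2-fold or more by edgeR and are among the abundant glycolytic genes, and for PGK1 and LDHA, which lay within 10% of their scramble TPM. Each sequence is the 250 bases before the gene start in the RefSeq table (GRCh38.p14), 5′ to 3′ on the gene's strand, and a gene may use other starts. Capitals mark ACGTG or GCGTG on either strand, the core letters of the site that hypoxia-inducible factors bind.
HK1, chr10:69269750-69269999, plus strand: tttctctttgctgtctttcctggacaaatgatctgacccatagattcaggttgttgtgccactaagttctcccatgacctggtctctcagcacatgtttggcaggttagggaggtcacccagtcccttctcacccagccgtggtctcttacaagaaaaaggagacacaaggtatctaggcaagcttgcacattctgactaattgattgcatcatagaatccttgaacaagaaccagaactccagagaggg
HK2, chr2:74833877-74834126, plus strand: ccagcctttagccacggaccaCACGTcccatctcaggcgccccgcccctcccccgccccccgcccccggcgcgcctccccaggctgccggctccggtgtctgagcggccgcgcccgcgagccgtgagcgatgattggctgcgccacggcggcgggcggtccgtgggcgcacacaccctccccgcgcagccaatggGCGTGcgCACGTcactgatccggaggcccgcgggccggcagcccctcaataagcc
ALDOA, chr16:30064029-30064278, plus strand: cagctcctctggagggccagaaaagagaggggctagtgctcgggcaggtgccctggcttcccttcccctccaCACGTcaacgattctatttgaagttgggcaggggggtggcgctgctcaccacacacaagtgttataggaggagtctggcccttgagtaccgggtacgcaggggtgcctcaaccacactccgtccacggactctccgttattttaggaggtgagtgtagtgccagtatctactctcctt
TPI1, chr12:6867281-6867530, plus strand: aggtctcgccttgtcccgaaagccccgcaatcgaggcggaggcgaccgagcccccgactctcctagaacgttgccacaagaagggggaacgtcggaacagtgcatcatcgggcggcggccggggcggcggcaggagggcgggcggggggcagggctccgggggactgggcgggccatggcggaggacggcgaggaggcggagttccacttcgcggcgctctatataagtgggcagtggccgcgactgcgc
GAPDH, chr12:6535014-6535263, plus strand: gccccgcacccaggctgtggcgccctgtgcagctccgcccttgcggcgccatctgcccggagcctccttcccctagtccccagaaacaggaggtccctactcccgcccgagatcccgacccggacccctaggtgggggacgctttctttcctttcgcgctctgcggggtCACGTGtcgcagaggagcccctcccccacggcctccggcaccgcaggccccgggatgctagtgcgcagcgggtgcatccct
PGK1, chrX:78103998-78104247, plus strand: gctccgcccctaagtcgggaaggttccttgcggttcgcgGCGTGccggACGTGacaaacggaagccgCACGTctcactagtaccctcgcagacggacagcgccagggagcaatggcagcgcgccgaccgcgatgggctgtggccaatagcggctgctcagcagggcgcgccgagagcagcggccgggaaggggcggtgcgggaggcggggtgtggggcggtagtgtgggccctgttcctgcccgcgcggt
LDHA, chr11:18394313-18394562, plus strand: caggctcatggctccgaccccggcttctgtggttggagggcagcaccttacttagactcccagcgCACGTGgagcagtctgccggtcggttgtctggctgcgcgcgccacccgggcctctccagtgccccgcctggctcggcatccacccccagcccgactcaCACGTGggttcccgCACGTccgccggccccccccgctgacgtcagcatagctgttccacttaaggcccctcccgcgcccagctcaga
GAPDH and LDHA also hold the E-box CACGTG, the letters bound by MYC with MAX, which contains ACGTG on both strands. Cores were found in the windows of HK2, ALDOA, GAPDH, PGK1 and LDHA. No core was found in the windows of HK1 and TPI1. Of 36 enzyme promoters matched in RefSeq (all but OGDH), 21 (58.3%) held either core, against 57.7% of the 10383 promoters of tested genes and 43.1% of all 27305. ACGTG alone was found in 13 (36.1%, against 23.4% of tested genes), GCGTG in 15 (41.7%, against 45.8%), and CACGTG in 4 (11.1%, against 8.95%). These matches describe letters only.

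Most of the enzymes were lower after CRIP1 knockdown, and lower genes were most frequent in glycolysis, a difference between pathways that was not tested. Of the 37 enzymes, all of which passed the filter on low counts, 25 fell and 7 rose at an adjusted p under 0.05 (edgeR), a called share of 86.5%. Across all 12612 genes tested, 77.6% were called, 38.1% lower and 39.4% higher, so a call by itself sets no gene apart here. The median log2 fold change was -0.22 over the enzymes and 0.01 over all genes. By pathway, 14 of 17 glycolytic genes fell and 1 rose (median -0.55), 4 of 6 pentose phosphate genes fell and 1 rose (-0.29), 3 of 5 pyruvate dehydrogenase genes fell and 2 rose (-0.18), and 4 of 9 TCA genes fell and 3 rose (0.04). The TCA genes included IDH1, IDH2 and MDH1, which are NADP-linked or cytosolic isozymes. The 4 that fell were CS, IDH3A, SUCLG1 and MDH2, and of the 3 that rose only OGDH was not such an isozyme. The TCA median of 0.04 was the value of MDH1. The 2 higher pyruvate dehydrogenase genes became 1 without scramble replicate 1 or without CRIP1 shRNA replicate 1 or 3. The 3 higher TCA genes became 5 with upper-quartile scaling and on the log2 FPKM and TPM scales, and the TCA median was -0.08 with a trend on GC content removed. A fall of 2-fold or more was seen in 7 of the enzymes (GPI, ALDOA, ALDOC, TPI1, GAPDH, TKT and PDHB), against 8.06% of all genes, and a rise of 2-fold or more in IDH1, against 10.0%. Tested against a change of 1.2-fold (edgeR's glmTreat), 17 fell and 4 rose, where 25.8% of all genes fell and 27.1% rose (53.0% in either direction). In TPM, 22 enzymes were lower and 10 higher without overlap of the groups, against 30.3% and 48.2% of all genes.

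**Figure D1:**
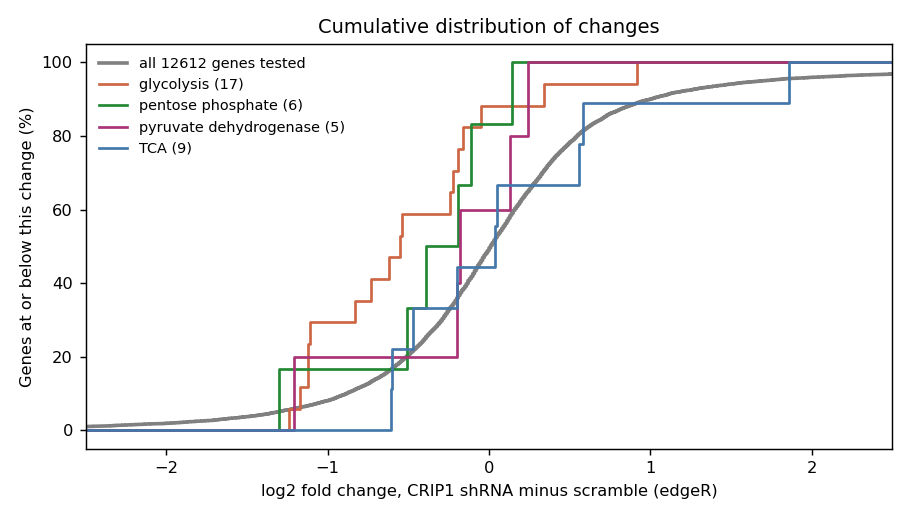
Cumulative distribution of the log2 fold change (horizontal axis, CRIP1 shRNA minus scramble, edgeR) as the percent of genes at or below each value (vertical axis), for all 12612 genes tested and for the enzymes of each pathway. The glycolysis curve lies to the left of all genes over most of the range, with a median of -0.55 against 0.01. The TCA curve, which includes NADP-linked and cytosolic isozymes, crosses that of all genes.

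The summed level of each pathway differed as well. Glycolytic genes summed to 19002 ± 253 TPM (SD, n = 3) in scramble and 13115 ± 306 TPM after knockdown, 69.0% of scramble, which took them from 1.90% to 1.31% of all transcripts. Pentose phosphate genes went from 1385 ± 7.89 to 1327 ± 30.9 TPM (95.8%) and pyruvate dehydrogenase genes from 323.2 ± 4.49 to 288.1 ± 5.07 TPM (89.1%). TCA genes, counted with the NADP-linked and cytosolic isozymes, went from 1704 ± 16.4 to 1875 ± 27.6 TPM (110.0%). Single genes set several of these sums, as was seen on leaving out the gene with the largest TPM difference of each pathway, a step added after the values were seen. Without IDH1 the other 8 TCA genes went from 1636 ± 14.3 to 1607 ± 30.8 TPM (98.2%), with overlapping groups. Without TALDO1, which rose, the other 5 pentose phosphate genes went from 666.8 ± 5.03 to 457.9 ± 6.11 TPM (68.7%). Without PDHB the other 4 pyruvate dehydrogenase genes went from 185.1 ± 4.90 to 222.2 ± 6.83 TPM (120.0%), so that sum turned from lower to higher. Without GAPDH the other 16 glycolytic genes stood at 78.7% of scramble. The limma fit on log2(TPM + 1), which differs from the edgeR fit in unit, test and filter (11639 genes), gave a median of 0.12 over all genes rather than 0.01. In it 61.4% of called genes were higher rather than 50.8%, and 10 enzymes rose and 20 fell. A small change can therefore differ in sign between a TPM level and the edgeR fold change, and such genes are named below.

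Glycolysis began with an exchange of hexokinases, the enzymes that trap glucose as glucose-6-phosphate. HK1, the widely expressed form, had 12.4, 12.7 and 13.4 TPM in scramble and 26.1, 26.6 and 26.6 TPM after knockdown. HK2, the inducible form common in tumours, had 25.2, 23.9 and 26.2 TPM in scramble and 17.5, 16.7 and 15.98 TPM after knockdown. The groups did not overlap for either gene, as for 78.5% of all genes tested, and the forms moved in opposite directions: HK1 rose 1.89-fold (log2 fold change 0.92, SE 0.05, adjusted p = 3.24e-12) and HK2 fell 1.66-fold (-0.73, SE 0.05, adjusted p = 2.57e-11). Summed over both genes the step went from 37.9 ± 1.55 to 43.1 ± 0.524 TPM (113.7% of scramble), without overlap. In TPM 48.2% of all genes tested were higher without overlap, and the median log2 fold change over all genes on log2(TPM + 1) was 0.12. HK1 made up 33.8% ± 0.807 (SD, n = 3) of hexokinase transcripts in scramble and 61.2% ± 1.30 after knockdown, so the gene with the higher level changed from HK2 to HK1.

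A group of upper steps, put together after the values were seen, fell to similar fractions of their scramble level. GPI, which turns glucose-6-phosphate into fructose-6-phosphate, had 219.95, 202.9 and 213.8 TPM in scramble and 100.7, 102.0 and 104.7 TPM after knockdown (-1.11, SE 0.04, adjusted p = 3.26e-16). The aldolases split fructose-1,6-bisphosphate, and ALDOA, the form of muscle and most cells, had 1976, 2069.9 and 2003 TPM in scramble against 903, 1003 and 928 TPM (-1.24, SE 0.04, adjusted p = 2.93e-16). Its minor partner ALDOC, a brain form, went from 32.4, 34.5 and 34.3 to 17.5, 17.8 and 15.3 TPM (-1.12, SE 0.08). Every knockdown value of these 3 genes lay below every scramble value. ALDOA was 98.4% ± 0.0371 of aldolase transcripts in scramble and 98.2% ± 0.137 after knockdown, with overlapping groups, and a difference between the aldolases in their fall was not tested.

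TPI1, which interconverts the triose phosphates, had 967, 942 and 946 TPM in scramble and 478, 476 and 486 TPM after knockdown (-1.12, SE 0.03, adjusted p = 4.33e-17). GAPDH, the step that first yields NADH, was the most abundant of the enzymes, with 5938, 6197 and 6346 TPM in scramble against 2836, 3108 and 3067 TPM (-1.17, SE 0.04, adjusted p = 3.51e-16). GAPDH is widely used as a reference gene, and here its knockdown level was 48.8% of scramble. GPI, the summed aldolases, TPI1 and GAPDH stood at 48.3%, 46.9%, 50.4% and 48.8% of their scramble TPM. Their levels ranged from 212.2 to 6161 TPM in scramble. These steps were grouped after the values were seen, so the narrowness of the band follows in part from the choice. Of the other upper steps, hexokinase stood at 113.7% and phosphofructokinase at 75.7%.

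**Figure D2:**
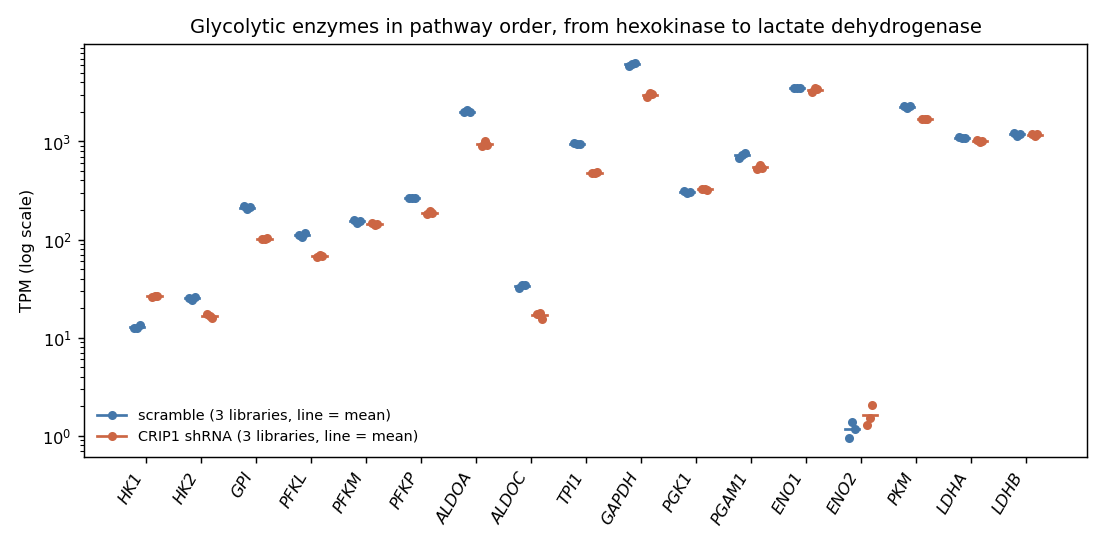
TPM of each glycolytic gene (vertical axis, log scale) in the 3 scramble and 3 CRIP1 shRNA libraries, in pathway order, with points for libraries and lines for group means. GPI, ALDOA, ALDOC, TPI1 and GAPDH stand at 46.8% to 50.4% of their scramble means, while PGK1, ENO1, LDHA and LDHB lie within 10% of theirs and HK1 rises as HK2 falls.

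A second set of steps fell less. Phosphofructokinase commits fructose-6-phosphate to glycolysis, and its summed level went from 530.0 ± 8.99 to 401.0 ± 5.64 TPM, 75.7% of scramble. PFKL, the liver form, had 110.6, 106.7 and 116.6 TPM in scramble and 66.7, 69.6 and 68.5 TPM after knockdown (-0.83, SE 0.04), and PFKP, the platelet form, had 263, 264 and 266 against 181, 196 and 188 TPM (-0.62, SE 0.04). PFKM, the muscle form, moved least, from 159, 149 and 155 to 148, 141 and 145 TPM (-0.22, SE 0.04, adjusted p = 1.33e-05). PFKM's share of phosphofructokinase transcripts accordingly went from 29.1% ± 0.686 to 36.1% ± 1.31, while that of PFKL went from 20.5% to 21.7% over the scramble libraries down to 16.9% to 17.1% and that of PFKP from 49.9% ± 0.821 to 46.9% ± 1.19, and PFKP kept the highest level of the 3.

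Near the end of the pathway, PGAM1, phosphoglycerate mutase, had 686, 736 and 759.7 TPM in scramble and 527, 569 and 539 TPM after knockdown (-0.55, SE 0.04, adjusted p = 1.15e-10). PKM, pyruvate kinase, had 2273, 2190.01 and 2276 TPM in scramble against 1686, 1701 and 1698 TPM (-0.54, SE 0.03, adjusted p = 2.21e-12). These 2 steps stood at 75.0% and 75.4% of scramble, close to the 75.7% of phosphofructokinase, a grouping also made after the values were seen. The table does not separate the M1 and M2 splice forms of PKM.

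The remaining steps lay within 10% of their scramble TPM. PGK1, which makes the first ATP of the payoff phase, had 312, 299 and 306 TPM in scramble and 327, 326 and 319 TPM after knockdown. Its knockdown TPM values all lay above scramble, yet the edgeR change was -0.05 (SE 0.03, adjusted p = 0.156), and its direction depends on the scaling. It was 0.08 on log2(TPM + 1) (limma, adjusted p = 0.0312), and edgeR with the GC trend taken out gave -0.19 (adjusted p = 5.52e-06). ENO1, the main enolase, had 3484, 3489 and 3538 TPM in scramble against 3217, 3469 and 3434 TPM (-0.19, SE 0.03, adjusted p = 4.14e-05), a call not made on log2(TPM + 1) (-0.06, adjusted p = 0.194). ENO2, the neuronal form, was low at 0.94 to 1.38 and 1.30 to 2.04 TPM and did not pass the test (0.34, SE 0.24, adjusted p = 0.201).

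Lactate dehydrogenase was among them. LDHA, the form favouring lactate, had 1109, 1076 and 1077 TPM in scramble and 1031, 987 and 1021 TPM after knockdown (-0.24, SE 0.03, adjusted p = 8.62e-07). LDHB, the heart form, had 1217, 1147 and 1201 TPM in scramble and 1202, 1129 and 1182 TPM after knockdown (-0.16, SE 0.03, adjusted p = 0.000244). The groups overlapped in TPM for LDHB, and its call was lost on log2(TPM + 1) (-0.02, adjusted p = 0.611). LDHA made up 47.8% ± 0.56 of the pair in scramble and 46.4% ± 0.237 after knockdown. Summed by step, phosphoglycerate kinase, enolase and lactate dehydrogenase stood at 106.0%, 96.3% and 96.0% of scramble.

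In the pentose phosphate pathway, the members of the non-oxidative arm parted. TKT, transketolase, which passes short carbon units between sugars, had 261, 263 and 261 TPM in scramble and 112, 122 and 117 TPM after knockdown, the largest fall of the 37 enzymes (-1.30, SE 0.04, adjusted p = 4.33e-17). TALDO1, transaldolase, which does so in a separate reaction, had 705, 721 and 729 TPM in scramble and 841, 889.6 and 876 TPM after knockdown (0.14, SE 0.04, adjusted p = 0.00147). The ratio of TALDO1 to TKT went from 2.75 ± 0.0479 to 7.44 ± 0.112 (SD, n = 3), a pair chosen after the values were seen and therefore not tested. RPE, the epimerase of ribulose-5-phosphate, fell from 28.6, 30.4 and 30.5 to 25.7, 23.5 and 26.3 TPM (-0.39, SE 0.05, adjusted p = 1.56e-06).

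RPIA, which forms ribose-5-phosphate, was between 74.3 and 75.6 TPM in scramble and between 72.9 and 79.95 TPM after knockdown, with overlapping groups. Its edgeR change of -0.11 (SE 0.05, adjusted p = 0.0468) was lost without scramble replicate 1 (adjusted p = 0.104), 2 (0.0754) or 3 (0.0682) and without CRIP1 shRNA replicate 1 (0.217), and was 0.03 on log2(TPM + 1), so no direction can be read. In the oxidative arm, PGD, 6-phosphogluconate dehydrogenase, which makes NADPH, had 268, 259 and 262 TPM in scramble against 207, 200.8 and 202 TPM (-0.51, SE 0.03, adjusted p = 3.03e-11). PGLS, the lactonase before it, was at 34.1 to 41.1 and 33.2 to 40.4 TPM with overlapping groups (-0.19, SE 0.09, adjusted p = 0.0676). It passed the test without scramble replicate 3 (-0.26, adjusted p = 0.026) and without CRIP1 shRNA replicate 2 (-0.30, adjusted p = 0.00591).

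**Figure D3:**
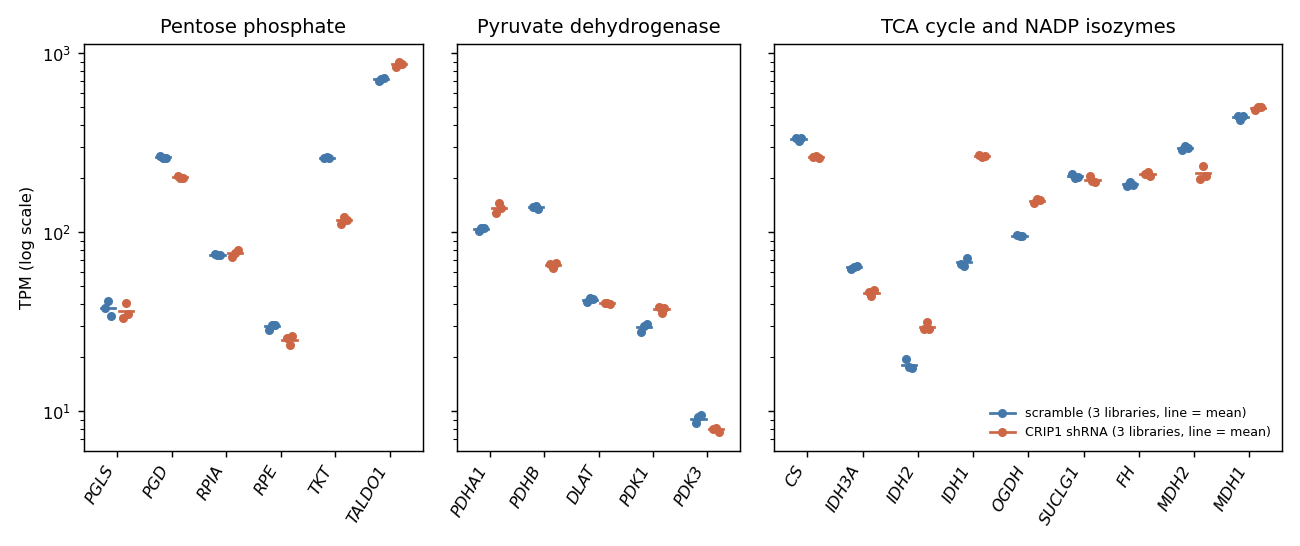
TPM (vertical axis, log scale) of the pentose phosphate, pyruvate dehydrogenase and TCA genes in each of the 3 scramble and 3 CRIP1 shRNA libraries, with points for libraries and lines for group means. TKT and PDHB stand at 44.6% and 47.7% of scramble, PDHA1 and TALDO1 lie above it, and IDH1 is at 268.4 against 67.9 TPM.

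The subunits of pyruvate dehydrogenase E1, which work as a tetramer of paired alpha and beta chains, moved apart. PDHB, the beta subunit, had 139, 139.6 and 135 TPM in scramble and 66.9, 63.5 and 67.2 TPM after knockdown (-1.21, SE 0.04, adjusted p = 1.74e-15). PDHA1, the alpha subunit, had 102, 106 and 105 TPM in scramble and 129, 146 and 136 TPM after knockdown (0.24, SE 0.04, adjusted p = 7.19e-06). The ratio of PDHA1 to PDHB transcripts went from 0.757 ± 0.0218 to 2.08 ± 0.19, again a pair chosen after the values were seen and not tested. DLAT, the E2 core, was at 40.9 to 42.9 TPM in scramble and 39.8 to 40.6 TPM after knockdown (-0.20, SE 0.04), a call lost on log2(TPM + 1) (-0.06, adjusted p = 0.173).

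The kinases that switch pyruvate dehydrogenase off moved in opposite directions by small amounts. PDK1 had 27.8, 29.97 and 30.6 TPM in scramble and 38.4, 35.4 and 37.7 TPM after knockdown, without overlap, but its edgeR change was 0.13 (SE 0.05, adjusted p = 0.0212). That call was lost without scramble replicate 1 (adjusted p = 0.138) and without CRIP1 shRNA replicate 1 (0.0723) or 3 (0.0585), and the sign turned with the GC trend removed (-0.07). PDK3 fell from 8.56, 9.25 and 9.55 to 8.01, 8.12 and 7.65 TPM (-0.18, SE 0.05, adjusted p = 0.00286). PDK1 made up 76.4% ± 0.131 of the pair in scramble and 82.4% ± 0.94 after knockdown.

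The isocitrate dehydrogenases were the most changed group around the TCA cycle. IDH1, the cytosolic NADP-linked enzyme, had 66.2, 65.3 and 72.2 TPM in scramble and 272, 265 and 268 TPM after knockdown, the largest rise of the 37 enzymes (3.63-fold, log2 fold change 1.86, SE 0.04, adjusted p = 6.33e-19). IDH2, its mitochondrial NADP-linked counterpart, rose from 19.7, 17.7 and 17.4 to 28.7, 31.7 and 28.9 TPM (0.58, SE 0.07, adjusted p = 5.57e-07). IDH3A, the catalytic subunit of the NAD-linked enzyme that runs in the cycle itself, fell from 62.5, 63.8 and 64.7 to 46.5, 44.3 and 47.4 TPM (-0.61, SE 0.04, adjusted p = 7.52e-11). Both NADP-linked forms thus rose while the NAD-linked subunit fell, and IDH1 went from 78.8% ± 1.76 to 90.0% ± 0.627 of the summed IDH1 and IDH2 level.

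Along the rest of the cycle, CS, citrate synthase, which condenses acetyl-CoA with oxaloacetate, had 335, 323 and 335 TPM in scramble and 263, 267 and 259.6 TPM after knockdown (-0.47, SE 0.03, adjusted p = 7.34e-11). OGDH, the E1 of oxoglutarate dehydrogenase, had 97.1, 94.9 and 95.8 TPM in scramble and 145, 153 and 152 TPM after knockdown (0.56, SE 0.04, adjusted p = 1.07e-11). Neither gene's groups overlapped. SUCLG1, a subunit of succinyl-CoA ligase, overlapped in TPM (202.1 to 213 and 191 to 206 TPM), and its edgeR call (-0.20, SE 0.04) was lost on log2(TPM + 1) (-0.06, adjusted p = 0.15, limma). FH, fumarate hydratase, had 182 to 190.4 TPM in scramble and 205 to 216 TPM after knockdown and did not pass the edgeR test (0.05, SE 0.04, adjusted p = 0.265), its change being 0.18 on log2(TPM + 1) (limma, adjusted p = 0.000763) and -0.08 once the GC trend was taken out (edgeR, adjusted p = 0.0401).

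Of the malate dehydrogenases, MDH2 passed the main edgeR test and MDH1 did not. MDH2, the mitochondrial enzyme that closes the cycle, had 288, 302 and 295 TPM in scramble and 199, 235 and 206 TPM after knockdown (-0.60, SE 0.05, adjusted p = 7.12e-10). MDH1, the cytosolic enzyme of the malate-aspartate shuttle, had 449, 426 and 446 TPM in scramble and 486, 499 and 503 TPM after knockdown, and its edgeR change was 0.04 (SE 0.04, adjusted p = 0.335), with 0.17 on log2(TPM + 1) and -0.05 with the GC trend removed. MDH1 went from 59.9% ± 1.23 to 69.9% ± 1.72 of the summed pair, a share that does not depend on the scaling of the library.

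**Figure D4:**
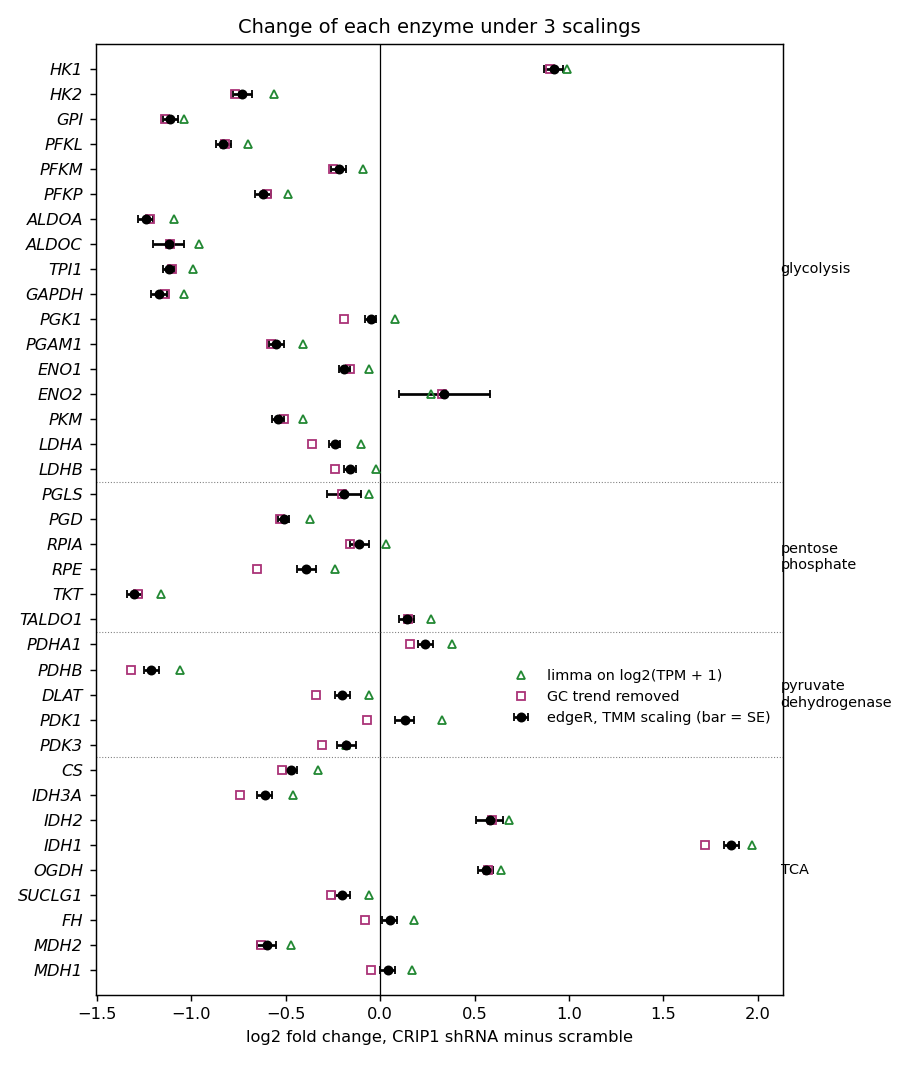
Log2 fold change of each enzyme (horizontal axis, CRIP1 shRNA minus scramble), grouped by pathway, from edgeR with its SE as a bar, from limma on log2(TPM + 1) and from edgeR with a GC trend removed. The falls of GPI, ALDOA, ALDOC, TPI1, GAPDH, TKT and PDHB and the rises of HK1 and IDH1 keep their direction under each, while PGK1, RPIA, PDK1, FH and MDH1 cross 0.

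Within-library shares were compared for 10 genes in 8 sets of isozymes. In 9 of them the groups did not overlap, and each of these gave p = 0.1 (adjusted p = 0.111) in an exact two-sided permutation test, which is the smallest p that 3 against 3 libraries allow, so none could pass 0.05. The exception was ALDOA (exact p = 0.3), and ENO1 made up nearly all of its set in both groups. The largest of these 10 shifts in percentage points were those of HK1 (27.4), IDH1 (11.2) and MDH1 (10.1).

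**Figure D5:**
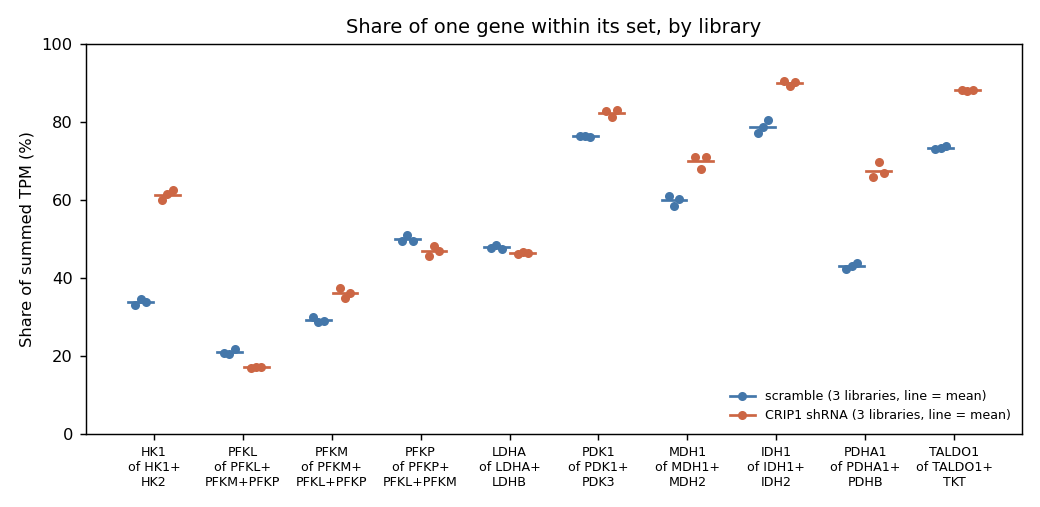
Share of the first-named gene in the summed TPM of its set (vertical axis, percent) in each of 3 scramble and 3 CRIP1 shRNA libraries, with points for libraries and lines for means. HK1 passes from 33.8% to 61.2% of hexokinase transcripts, and the PDHA1 and TALDO1 pairs at the right were chosen after their values were seen.

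Other genes listed with the same pathways went both ways. Of 72 tested genes outside the set, 28 rose and 26 fell, a called share of 75.0% against 77.6% of all genes, with a median of 0.06. The counts of each list below stand beside 39.4% of all genes higher and 38.1% lower. Of 9 transport genes 6 rose and 2 fell (1 on log2(TPM + 1)): the glucose transporter SLC2A1 went from 5.96 ± 0.307 to 11.8 ± 1.40 TPM (0.85, SE 0.09), the lactate carrier SLC16A1 rose (0.40, SE 0.04), as did the mitochondrial pyruvate carrier subunit MPC2 (0.36, SE 0.05), and the intracellular transporter SLC2A8 fell (-0.65, SE 0.06). Among further genes listed with glycolysis and its control 6 rose and 6 fell of 18, with PGAM5 (-0.71, SE 0.04), PGP (-0.58, SE 0.06) and PGM1 (-0.49, SE 0.05) lower. The list reaches beyond the steps of glycolysis, and PGAM5 and PGP are not among those steps. PKLR, the pyruvate kinase of liver and red cells, had 1 count over the scramble libraries and 193 over the knockdown libraries, a ratio of 187 (95% counting interval 33.2 to 7428), at 2.36 TPM against 1695 TPM of PKM. PKLR is 1 of the 6 that rose, but it passed the filter on low counts only through the knockdown libraries and could not have been called lower. It moved with the erythroid markers, and their link was not tested.

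Of 9 other pentose phosphate genes 4 rose and 4 fell. H6PD, which makes NADPH in the endoplasmic reticulum, rose (1.06, SE 0.05), as did the gluconokinase IDNK (1.73, SE 0.11), while PRPS2, which makes phosphoribosyl pyrophosphate, fell (-0.79, SE 0.04). Of 9 other pyruvate dehydrogenase genes 4 rose and 1 fell, and no lower call was made by DESeq2 or without scramble replicate 3 or any 1 of the CRIP1 shRNA replicates: LIAS (1.08, SE 0.09) and LIPT1 (0.97, SE 0.13), which make and transfer lipoic acid, PDP2 (0.29, SE 0.06) and the E3 subunit DLD (0.25, SE 0.04) were higher, and DLD lost its call with the GC trend removed (0.03, adjusted p = 0.347).

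Of 17 further TCA genes 7 fell and 4 rose, with 8 higher on log2(TPM + 1). SUCLG2, a subunit of succinyl-CoA ligase (-1.03, SE 0.06), the NAD-linked isocitrate dehydrogenase subunit IDH3G (-0.67, SE 0.05) and the assembly factor SDHAF2 (-0.70, SE 0.06) fell. IDH3G thus moved in the direction of IDH3A. Among 10 genes of gluconeogenesis and anaplerosis 4 rose and 6 fell. The cytosolic transaminase GOT1 rose from 80.9 ± 1.88 to 282.3 ± 5.35 TPM (1.67, SE 0.04) while the mitochondrial GOT2 fell (-0.64, SE 0.04). PCK2, the mitochondrial phosphoenolpyruvate carboxykinase, rose (1.10, SE 0.04) and ACLY, which makes cytosolic acetyl-CoA from citrate, fell (-0.83, SE 0.03).

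The lists for the hypoxia response and for glucose sensing each held higher and lower genes, as did all genes tested (39.4% higher and 38.1% lower). Hypoxia-inducible factors are known to raise many glycolytic genes. Of 16 tested genes of the hypoxia response outside the pathways 9 rose and 5 fell (2 fell on log2(TPM + 1)), a called share of 87.5% against 77.6% of all genes. HIF1A rose from 30.4 ± 0.857 to 51.4 ± 1.29 TPM (0.62, SE 0.04), VEGFA from 76.3 ± 4.09 to 129.9 ± 4.21 TPM (0.62, SE 0.04) and BNIP3L by 0.67 (SE 0.04), whereas the collagen hydroxylases P4HA1 (-0.73, SE 0.07) and P4HA2 (-0.77, SE 0.12) fell. Of 4 tested genes of the glucose-sensing MondoA network 3 rose and 1 fell. TXNIP, which restrains glucose uptake, rose from 7.86 ± 0.458 to 60.3 ± 2.72 TPM (2.80, SE 0.06), with ARRDC4 (2.11, SE 0.18) and MLX (0.32, SE 0.04), and MLXIP, encoding MondoA, fell (-0.29, SE 0.06), a call not made on log2(TPM + 1) (-0.14, adjusted p = 0.111). No relation between these genes and the enzymes was tested.

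The genes that fell most were spread over several chromosomes. GPI (chromosome 19, 34359480 to 34402413, GRCh38 as annotated by GENCODE 29), ALDOA (chromosome 16, 30053090 to 30070420), TKT (chromosome 3, 53224707 to 53256052) and PDHB (chromosome 3, 58427630 to 58433857) lie apart, while GAPDH (chromosome 12, 6533927 to 6538374) and TPI1 (chromosome 12, 6867119 to 6870948) lie within 500 kb of each other and of ENO2. Tested neighbours within 500 kb had a median log2 fold change of 0.43 around GPI (8 genes), 0.10 around ALDOA (36), -0.07 around both TPI1 (31) and GAPDH (29), 0.09 around TKT (7) and 0.17 around PDHB (7). IDH1, the largest rise, had 4 tested neighbours with a median of 0.15.

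The enzymes include many abundant genes. Of the 24 enzymes with a mean of at least 100 TPM over all libraries, a limit chosen after the values were seen, 17 fell and 4 rose (median -0.35), and 6 fell 2-fold or more. Among all 1741 genes at that level 46.8% fell and 38.1% rose (median -0.06), and 4.77% fell 2-fold or more. Copies limit some values: GENCODE 29 names 111 pseudogenes for 15 of the enzymes, 62 of them for GAPDH, and none is in the table, so how their reads were assigned cannot be seen. Exons of 18 enzymes overlap a gene on the opposite strand, among them TPI1 with SPSB2 and PFKM with SENP1, and no strand setting is given.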

How the data were processed

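Per the labels, total RNA of KMS11 cells was extracted with TRIzol and 6 libraries prepared with a SMARTer kit, and groups and replicate numbers come from the sample titles. The deposited table holds estimated counts, FPKM and TPM per gene and library, per the file headers. RSEM 1.2.8, Bowtie2 2.2.5, HISAT2 2.1.0 and the build GRCh38.p13 are listed, without roles, in the submitters' processing notes, which give no annotation or strand setting. TPM and FPKM were used as deposited.

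Estimated counts were rounded and all genes tested with edgeR 4.0.16 (R 4.3.3; filterByExpr, minimum count 10; TMM; quasi-likelihood test; group only), with Benjamini-Hochberg adjustment over 12612 genes and a threshold of 0.05. Each SE was derived as the absolute log2 change over the root of its F statistic. DESeq2 1.42.0 and limma 3.58.1 served as alternatives. A share or ratio is of TPM within a library. The members, lists, naming rule (all members, and of each pathway list the 4 smallest adjusted p and the largest called change, plus CRIP1 and 5 cell type markers, some of them not reported here) and alternatives were chosen with earlier results of these data known. On simulated data for this comparison (12612 genes), the fit recovered 48 of 66 genes changed 1.25-fold, 61 of 71 genes changed 1.5-fold, 61 of 63 genes changed 2-fold, with 9 false calls. Only those genes were changed there, in random directions, with the same dispersion for every gene. In the data 77.6% of genes were called, so the recovery and the false calls may not carry over. Libraries of a group correlated at 0.995 to 0.996, against 0.921 to 0.923 between groups, and differed by more than sampling noise (mean chi-square per gene 1.62 to 4.15). The ratio interval for PKLR is exact binomial and covers counting error only.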

Additional observations from a re-analysis of the deposited data

How the results depend on the processing

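Over 17 alternatives, 22 of the 37 enzymes kept their direction and their side of the threshold, among them GPI (-1.14 to -1.04), ALDOA (-1.30 to -1.09), TPI1 (-1.13 to -0.99), GAPDH (-1.21 to -1.04), TKT (-1.34 to -1.16), PDHB (-1.32 to -1.06), HK1 (0.90 to 1.04), HK2 (-0.77 to -0.56) and IDH1 (1.72 to 1.98). Signs turned for PGK1 (0.04 on log2(FPKM + 1), 0.08 on log2(TPM + 1) and log2(TPM + 0.1)), RPIA (0.03 on both TPM scales), and, with the GC trend removed, PDK1 (-0.07), FH (-0.08) and MDH1 (-0.05). The cause was not tested. The GC correction moved the median of all genes to -0.08 and gave 42.9% of calls as higher, with 6 enzymes higher and 28 lower.

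Against a 1.2-fold change (edgeR's glmTreat), 4 enzymes were higher and 17 lower (53.0% of all genes called), with 0 higher in the pentose phosphate pathway, and 0 higher and 1 lower among pyruvate dehydrogenase genes, a stricter question by construction. For those 0 counts the main test called 1 and 2 genes. Glycolysis had 2 higher genes on both TPM scales, the TCA cycle 5 with upper-quartile, FPKM and both TPM settings, and pyruvate dehydrogenase 1 with the GC trend removed and 1 to 2 when a library was left out (1 without scramble replicate 1 or CRIP1 shRNA replicate 1 or 3). HK1's difference in share was 26.0 percentage points in estimated counts and PDK1's 4.95, against 27.4 and 6.04 in TPM, since counts are not divided by length. Summed FPKM stood at 66.8% of scramble for glycolysis, 92.7% for the pentose phosphate pathway, 86.3% for pyruvate dehydrogenase and 106.5% for the TCA cycle, without TPM's common total. Leaving out the gene with the largest TPM difference, a step chosen after seeing the data, moved the summed TPM to 78.7% of scramble for glycolysis (without GAPDH) and 68.7% for the pentose phosphate pathway (without TALDO1), and turned it to 120.0% for pyruvate dehydrogenase (without PDHB) and 98.2% for the TCA cycle (without IDH1).

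Same-numbered libraries did not deviate together (correlations 0.0455, -0.00877 and -0.0133), which cannot show whether they were prepared as pairs. The replicate block gave 7 higher and 25 lower enzymes as well, with 4985 higher and 4831 lower genes in all against 4974 and 4809. Left-out libraries gave 6 to 7 higher and 24 to 26 lower enzymes. At these depths ENO2 had low counts.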
